A study of Mus musculus with 6 samples.

Results

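The 32 genes described here are markers of adipocytes and genes of lipid storage, chosen by name: adipokines, lipid droplet proteins, transporters, lipases, enzymes of triglyceride synthesis and the transcription factors of fat cells. Of them, 31 have a row in the deposited table of 30777 genes, and all 31 were expressed highly enough to be among the 20101 genes tested. Ucp1, the uncoupling protein of brown fat, has no row and was not analysed here. Colons of BALB/c mice gave 6 RNA libraries, 3 from mice given 5-fluorouracil and berberine (5-Fu+BBR) and 3 from mice given 5-fluorouracil alone (5-Fu). 5-fluorouracil is a chemotherapy drug that harms dividing cells of the gut lining, and berberine is a plant alkaloid. Every mouse had thus received 5-fluorouracil, and no untreated group is among the libraries. The labels give no dose, time or age and leave unsaid whether each library is its own animal. The p-values therefore reflect how far these libraries differ, which may be technical. The only comparison asks what differs when berberine is added. By their known expression in mouse tissues the members were put into 3 classes: 10 fat-restricted genes with a row, 11 genes of fat and few other tissues such as muscle, liver, kidney or endothelium, and 10 lipid genes expressed broadly, including in colon epithelium. The class names go by that knowledge and not by levels in these libraries. The members were, however, chosen with earlier results of these data known, so the classes cannot be taken as independent of the data. In 5-Fu libraries 1 and 3, where Adipoq, Plin1, Retn and Lep had 0 counts, other fat-restricted genes were detected. Cidec had 82 and 62 estimated counts there, Adrb3 74 and 49, Acvr1c 117 and 188 and Cidea 24 and 16. Where these came from was not tested.

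White adipocytes store triglyceride in one large droplet. The droplet surface is coated by perilipin 1 and enlarged by CIDEC, fatty acids arrive through lipoprotein lipase and CD36, and lipases release them again when adrenergic receptors are stimulated. PPARγ and C/EBPα drive these genes, and adipocytes secrete leptin, adiponectin, resistin and adipsin. The colon itself is not a fat depot, but the mesentery attached to it is rich in fat, while the epithelium has its own enzymes for making and storing lipid.

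Most fat-restricted genes lay much higher in 5-Fu+BBR than in 5-Fu, whereas most broadly expressed lipid genes were at like levels in both. Levels are given as FPKM, the authors' estimate corrected for transcript length and sequencing depth. Summed over the 10 fat-restricted genes, they were 34.3, 69.8 and 40.1 FPKM in 5-Fu+BBR libraries 1 to 3, against 1.54, 9.08 and 2.15 FPKM in 5-Fu libraries 1 to 3, so that the mean sum was 11.3-fold higher. Cfd alone made up 21.1, 45.6 and 25.4 FPKM of the former sums and 0, 5.60 and 0.866 FPKM of the latter. Over the 10 broadly expressed genes the sums were 163, 193 and 155 FPKM in 5-Fu+BBR and 157, 160 and 142 FPKM in 5-Fu, 1.11-fold higher, with overlap between the groups. The 11 genes of fat and few other tissues stood between them, at 80.8, 140 and 97.5 FPKM in 5-Fu+BBR and 43.4, 45.1 and 45.1 FPKM in 5-Fu. Of these, Car3 and Pck1 had the highest means in 5-Fu+BBR, 32.2 and 24.5 FPKM, against 1.67 and 10.3 FPKM in 5-Fu. For Gpd1, Cebpa and Slc2a4 the groups overlapped. Smooth muscle genes were likewise higher in every 5-Fu+BBR library, and 5-Fu+BBR libraries 2 and 3 held kidney transcripts that library 1 lacked at that level; both are given with their values at the end. In whole tissue, fewer cells of a type and less RNA per cell cannot be told apart.

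In edgeR's quasi-likelihood test, adjusted over all genes tested, 0 of the 31 members passed an adjusted p of 0.05, where 0.0746% of all genes tested did and 0.0597% did as higher in 5-Fu+BBR. The lowest adjusted p of a member was 0.0702, for Cidec. At an unadjusted p under 0.05, 18 members were higher in 5-Fu+BBR, where 9.48% of all genes tested were, and 0 were lower, where 6.08% of all genes were. These 18 comprised 9 of the 10 fat-restricted genes, 7 of the 11 genes of fat and few other tissues and 2 of the 10 broadly expressed genes. In CPM, counts scaled to library size, all 3 libraries of 5-Fu+BBR lay above all 3 of 5-Fu for 19 members (12.3% of all genes tested) and below them for 1 (9.68% of all genes). The median log2 fold change, 5-Fu+BBR minus 5-Fu, was 3.89 for fat-restricted genes, 1.17 for genes of fat and few other tissues and -0.02 for broadly expressed genes, beside 0.01 for all genes tested. With Lep set to its lower bound the first of these was 3.85. The counts and medians describe the members and do not support one another, because Lep, Mrap, Plin1, Retn, Cfd and Adipoq passed the filter on low counts through the 5-Fu+BBR libraries only. DESeq2, another count test, placed 14 members past an adjusted p of 0.05, all higher, where it called 4.65% of the genes it adjusted. Without 5-Fu library 2, which held more fat transcripts than the others, edgeR called 6 members, namely Adipoq, Plin1, Car3, Cidec, Lpl and Retn, where 0.698% of all genes were called as higher. Leaving out any other single library gave 0. The 6 calls leave out the 5-Fu library in which each of these genes was highest, so they are no added support.

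**Figure D1:**
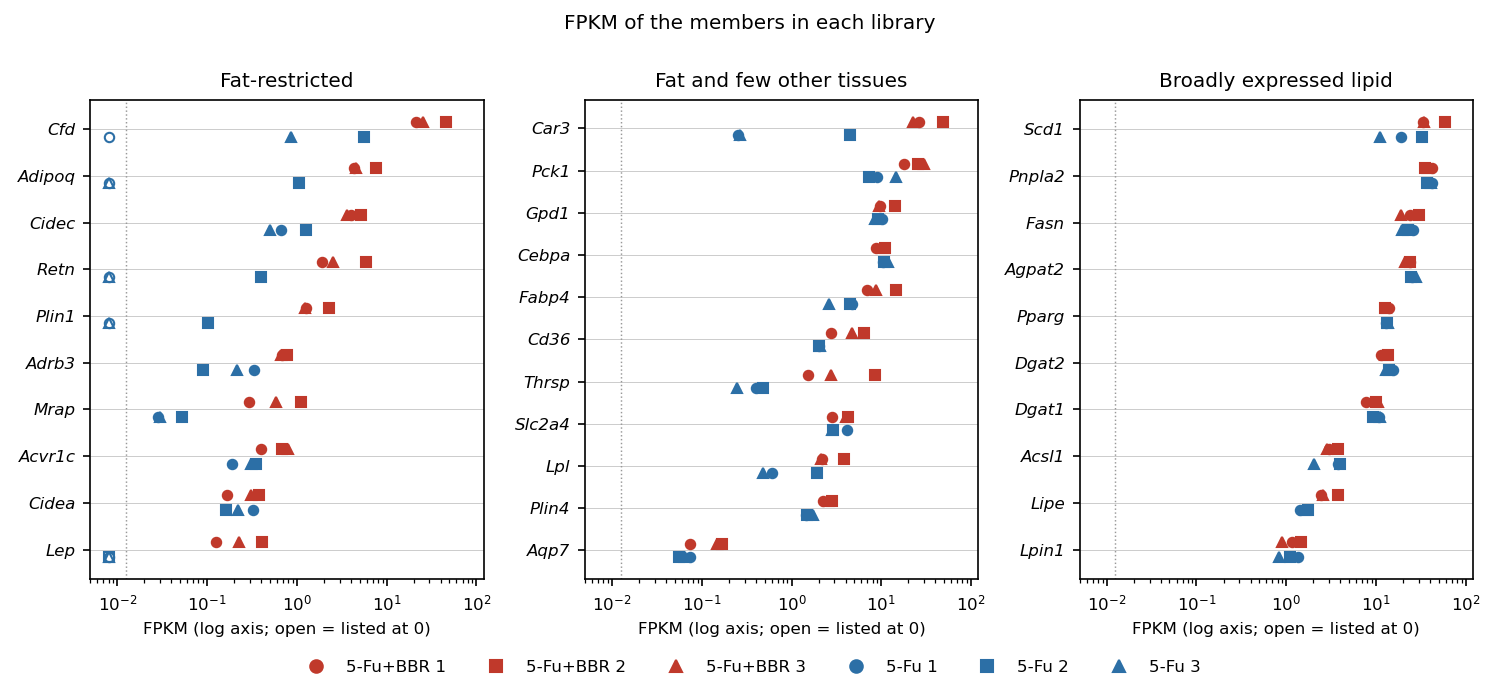
FPKM of the 31 members on a log axis, one panel per class and one point per library; red points, drawn above, are 5-Fu+BBR and blue points are 5-Fu, the marker shape gives the library number and open points left of the dotted line are values listed at 0. Fat-restricted genes such as Cfd, Adipoq and Plin1 separate widely, while Pparg, Pnpla2 and Dgat1 coincide.

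The secreted factors of fat were lower in every 5-Fu library than in any 5-Fu+BBR library. Adipoq (ENSMUSG00000022878, chromosome 16, 23146536 to 23158028 of GRCm38) encodes adiponectin, a hormone made almost only by adipocytes. Its level was 4.37, 7.55 and 4.6 FPKM in 5-Fu+BBR libraries 1 to 3, against 0, 1.05 and 0 FPKM in 5-Fu libraries 1 to 3 (log2 fold change 3.99 ± 1.56 SE, adjusted p = 0.307). The groups did not overlap, and among the 5-Fu libraries only the second had counts. Without that library the level of Adipoq in 5-Fu+BBR was at least 79.6-fold higher, taking a floor of 3 fragments over the remaining 5-Fu libraries (adjusted p = 0.0189), a value that leaves out the only 5-Fu library with counts of the gene; the same holds for Retn and Plin1. Cfd (ENSMUSG00000061780, chromosome 10, 79890853 to 79892655) encodes adipsin, the complement factor D that fat releases. It was the most abundant fat-restricted gene, at 21.1, 45.6 and 25.4 FPKM in 5-Fu+BBR and 0, 5.60 and 0.866 FPKM in 5-Fu (log2 fold change 3.86 ± 1.34, adjusted p = 0.27). Its means differed 14.3-fold, yet the spread between the 5-Fu libraries was larger than their mean (30.7 ± 13.1 against 2.16 ± 3.02 FPKM, SD, n = 3 each).

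Retn (ENSMUSG00000012705, chromosome 8, 3655770 to 3660110) encodes resistin, a hormone of white fat in mice. It was at 1.9, 5.83 and 2.54 FPKM in 5-Fu+BBR and 0, 0.402 and 0 FPKM in 5-Fu (log2 fold change 4.62 ± 1.44, adjusted p = 0.233). Without 5-Fu library 2 it was at least 56.3-fold higher (adjusted p = 0.032). Lep (ENSMUSG00000059201, chromosome 6, 29060220 to 29073877) encodes leptin, the satiety hormone. It was the lowest of the members in 5-Fu+BBR but for Aqp7, at 0.125, 0.404 and 0.224 FPKM, and had 0 counts in all 3 libraries of 5-Fu. Against a floor of 3 fragments over the 5-Fu group its level in 5-Fu+BBR was at least 14.4-fold higher (adjusted p = 0.0752). With the floor over 5-Fu libraries 1 and 3 only, this limit was 8.80-fold.

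Of the lipid droplet proteins, Plin1 and Cidec lay far apart between the groups and Plin4 less so. Plin1 (ENSMUSG00000030546, chromosome 7, 79720218 to 79732835), the perilipin that guards the droplet of fat cells, was at 1.25, 2.27 and 1.25 FPKM in 5-Fu+BBR and 0, 0.103 and 0 FPKM in 5-Fu (log2 fold change 5.39 ± 1.31, adjusted p = 0.166). The ratio of means, 46.4-fold, was the largest of the members with a 5-Fu mean above 0, and it rests on 5-Fu library 2: without it Plin1 was at least 77.6-fold higher (adjusted p = 0.0189). Cidec (ENSMUSG00000030278, chromosome 6, 113424634 to 113435760), which fuses small droplets into large ones, was detected in every library. It was at 3.99, 5.20 and 3.66 FPKM in 5-Fu+BBR and 0.665, 1.26 and 0.504 FPKM in 5-Fu, 5.28-fold higher (log2 fold change 2.40 ± 0.33, adjusted p = 0.0702). Its lowest 5-Fu+BBR library was above its highest 5-Fu library. Plin4, a perilipin of nascent droplets that muscle expresses as well, was at 2.22, 2.86 and 2.54 FPKM in 5-Fu+BBR and 1.46, 1.5 and 1.75 FPKM in 5-Fu (1.62-fold, adjusted p = 0.15). Cidea, a droplet protein most abundant in brown fat, was the one fat-restricted gene whose groups overlapped, at 0.167, 0.378 and 0.307 FPKM in 5-Fu+BBR and 0.323, 0.162 and 0.219 FPKM in 5-Fu (log2 fold change 0.26 ± 0.57, adjusted p = 0.871).

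The receptor genes of the fat-restricted class were low but also apart. Adrb3, the β3-adrenergic receptor that starts lipolysis in mouse fat, was at 0.689, 0.777 and 0.668 FPKM in 5-Fu+BBR and 0.331, 0.0909 and 0.217 FPKM in 5-Fu (3.34-fold, adjusted p = 0.164). Unlike most fat-restricted genes it was lowest, not highest, in 5-Fu library 2. Acvr1c, which encodes the activin receptor ALK7 of adipocytes, was at 0.398, 0.682 and 0.798 FPKM in 5-Fu+BBR and 0.192, 0.347 and 0.311 FPKM in 5-Fu (2.21-fold, adjusted p = 0.186). Mrap, an accessory protein of the corticotropin receptor in fat and adrenal, was at 0.296, 1.10 and 0.582 FPKM in 5-Fu+BBR and 0.0281, 0.0519 and 0.0299 FPKM in 5-Fu, 18-fold higher (adjusted p = 0.0828). Its 5-Fu values correspond to 3, 7 and 4 estimated counts, perhaps the worth of 1 or 2 fragments.

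Promoter sequences are given for 4 genes that lay far apart between the groups, with that of Pnpla2, a lipase gene of like level in both, for contrast. Each spans 250 bases before to 50 bases after the start site in RefSeq, build GRCm38.p6, 5′ to 3′ on the gene's strand. The windows are chr16:23146286-23146585 for Adipoq, chr10:79890603-79890902 for Cfd, chr6:29059971-29060270 for Lep and chr7:141454938-141455237 for Pnpla2, all on the plus strand, and chr7:79732727-79733026 on the minus strand for Plin1. Capitals mark matches, on either strand, to CCAAT, to the GC box GGGCGG, to the C/EBP motif TTGCNNAA, to the TATA box TATAAA and to the nuclear receptor motif AGGTCA, and no matches of different motifs overlapped.
Adipoq: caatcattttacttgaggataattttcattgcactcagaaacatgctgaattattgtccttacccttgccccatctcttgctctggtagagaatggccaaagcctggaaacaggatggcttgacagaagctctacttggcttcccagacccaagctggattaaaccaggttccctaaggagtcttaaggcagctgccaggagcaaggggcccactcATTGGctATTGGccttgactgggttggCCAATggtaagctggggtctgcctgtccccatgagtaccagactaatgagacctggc
Cfd: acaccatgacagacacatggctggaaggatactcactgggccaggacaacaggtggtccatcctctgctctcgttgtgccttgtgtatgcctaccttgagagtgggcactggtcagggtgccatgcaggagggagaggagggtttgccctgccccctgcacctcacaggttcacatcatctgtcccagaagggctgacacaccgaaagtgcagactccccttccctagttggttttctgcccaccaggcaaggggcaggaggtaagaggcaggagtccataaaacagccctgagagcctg
Plin1: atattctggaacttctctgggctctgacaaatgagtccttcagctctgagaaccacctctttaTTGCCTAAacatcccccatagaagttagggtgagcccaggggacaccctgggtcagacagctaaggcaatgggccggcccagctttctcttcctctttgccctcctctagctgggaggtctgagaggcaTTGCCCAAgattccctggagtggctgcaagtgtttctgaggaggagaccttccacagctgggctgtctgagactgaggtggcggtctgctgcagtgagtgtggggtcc
Lep: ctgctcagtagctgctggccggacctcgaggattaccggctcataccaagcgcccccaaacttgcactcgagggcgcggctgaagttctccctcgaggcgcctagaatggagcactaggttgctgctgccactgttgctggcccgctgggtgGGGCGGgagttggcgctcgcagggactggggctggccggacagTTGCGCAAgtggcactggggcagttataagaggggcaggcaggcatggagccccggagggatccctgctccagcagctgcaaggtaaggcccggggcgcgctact
Pnpla2: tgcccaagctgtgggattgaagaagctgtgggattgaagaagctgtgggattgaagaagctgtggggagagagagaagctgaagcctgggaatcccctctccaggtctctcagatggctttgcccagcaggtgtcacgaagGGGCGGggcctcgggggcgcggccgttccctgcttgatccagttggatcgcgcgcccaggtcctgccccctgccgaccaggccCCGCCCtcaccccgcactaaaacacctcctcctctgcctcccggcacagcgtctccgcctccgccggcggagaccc

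Adipoq holds 3 matches to CCAAT, which 37.4% of all 32851 promoters of this length hold. Plin1 holds 2 matches to TTGCNNAA and Lep holds 1, a motif found in 10.8% of all promoters. GGGCGG is present in Lep and Pnpla2 and in 35.7% of all promoters. Cfd has no match to these letters, and none of the 5 holds TATAAA or AGGTCA, found in 13.6% and 16.3% of all promoters. Of the 32 members, 21 have a promoter in the table. The 8 of fat-restricted genes, Ucp1 among them, had a median GC content of 56.7% and a median CpG ratio, observed over that given by base composition, of 0.18. The 7 of broadly expressed genes had medians of 69.3% and 0.71, and all promoters had 52.7% and 0.38. These matches describe letters in a window and say nothing about binding.

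Among genes shared by fat and few other tissues, Car3 differed most. Car3 (ENSMUSG00000027559, chromosome 3, 14863512 to 14872523) encodes carbonic anhydrase III, abundant in fat, slow muscle and liver. It was at 26.2, 48.1 and 22.5 FPKM in 5-Fu+BBR and 0.252, 4.5 and 0.264 FPKM in 5-Fu, 19.3-fold higher (log2 fold change 4.31 ± 1.21, adjusted p = 0.211). It ranked 3 of the 31 members by mean FPKM in 5-Fu+BBR and 16 in 5-Fu. Without 5-Fu library 2 its log2 fold change was 6.85 (adjusted p = 0.0189). These values leave out the 5-Fu library with the highest level of Car3 and are no added support for a difference. Thrsp, a lipogenic protein of fat and liver, was the most uneven member within 5-Fu+BBR, at 1.51, 8.53 and 2.74 FPKM, against 0.400, 0.484 and 0.246 FPKM in 5-Fu (log2 fold change 3.46 ± 0.65, adjusted p = 0.11). Its second 5-Fu+BBR library was 4.02-fold above the mean of the others.

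Uptake and transport genes were higher by smaller amounts. Fabp4, the fatty acid carrier of fat cells, which capillary endothelium and macrophages also express, was at 6.97, 14.6 and 8.83 FPKM in 5-Fu+BBR and 4.76, 4.43 and 2.64 FPKM in 5-Fu (2.57-fold, adjusted p = 0.127). Cd36, a fatty acid transporter, was at 2.75, 6.38 and 4.74 FPKM in 5-Fu+BBR and 2.00, 2.00 and 2.08 FPKM in 5-Fu (2.28-fold, adjusted p = 0.135). The 5-Fu libraries of Cd36 differed little among themselves, including the second. Lpl, lipoprotein lipase, was at 2.18, 3.86 and 2.10 FPKM in 5-Fu+BBR and 0.603, 1.92 and 0.486 FPKM in 5-Fu (log2 fold change 1.46 ± 0.54, adjusted p = 0.282). Its second 5-Fu library came close to the 5-Fu+BBR libraries. Without that library the log2 fold change was 2.26 (adjusted p = 0.0346). These values leave out the 5-Fu library nearest to 5-Fu+BBR and are no added support for a difference.

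Pck1, the gluconeogenic enzyme that also supplies glycerol for triglyceride in fat, was at 17.9, 25.8 and 29.8 FPKM in 5-Fu+BBR and 9.0, 7.37 and 14.4 FPKM in 5-Fu (2.39-fold, adjusted p = 0.179). In contrast to the adipokines it was highest in libraries 3 of both groups and lowest in 5-Fu library 2. Within 5-Fu+BBR it was lowest in library 1, as was the summed level of kidney genes given at the end. A link between them was not tested. Aqp7, the glycerol channel of fat, was at most 0.166 FPKM in any library, and its groups were apart in CPM but not in FPKM (adjusted p = 0.422). Gpd1, glycerol-3-phosphate dehydrogenase, was at 11.0 ± 2.72 FPKM in 5-Fu+BBR and 9.24 ± 0.829 FPKM in 5-Fu (SD, n = 3 each; adjusted p = 0.519). Slc2a4, the insulin-responsive glucose transporter GLUT4, was at 3.71 ± 0.766 FPKM in 5-Fu+BBR and 3.31 ± 0.760 FPKM in 5-Fu (adjusted p = 0.774). Cebpa, the transcription factor of fat, liver and myeloid cells, was at 10.2 ± 1.33 FPKM in 5-Fu+BBR and 11.0 ± 0.657 FPKM in 5-Fu (adjusted p = 0.696). For these 3 genes the groups overlapped.

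Of the broadly expressed lipid genes, Scd1 and Lipe were apart between the groups in the direction of the fat genes. Scd1, the desaturase that makes oleate, was at 33.3, 58.5 and 34.4 FPKM in 5-Fu+BBR and 18.9, 32.3 and 11.0 FPKM in 5-Fu (2.03-fold, adjusted p = 0.267). Its highest 5-Fu library was under its lowest 5-Fu+BBR library. Lipe, hormone-sensitive lipase, was at 2.45, 3.75 and 2.55 FPKM in 5-Fu+BBR and 1.43, 1.75 and 1.63 FPKM in 5-Fu (log2 fold change 0.85 ± 0.19, adjusted p = 0.126). Lipe overlaps the gene 4732471J01Rik on the other strand, Plin4 overlaps Hdgfl2 and Adrb3 overlaps Gm45470, and the sources used here do not say whether counting used strand.

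The remaining 8 broadly expressed genes had log2 fold changes between -0.18 and 0.09. Pparg (ENSMUSG00000000440, chromosome 6, 115360951 to 115490399), the master regulator of fat cells and also a gene of colon epithelium, was at 13.9, 12.6 and 13.0 FPKM in 5-Fu+BBR and 12.8, 13.4 and 13.4 FPKM in 5-Fu (log2 fold change 0.00 ± 0.11, adjusted p = 0.99). Pnpla2, adipose triglyceride lipase, was at 38.6 ± 3.34 FPKM in 5-Fu+BBR and 39.8 ± 2.77 FPKM in 5-Fu (SD, n = 3 each; adjusted p = 0.892). The acyltransferases that complete triglyceride, Dgat1 and Dgat2, were at 9.48 ± 1.48 and 12.5 ± 1.05 FPKM in 5-Fu+BBR, against 10.4 ± 0.921 and 14.1 ± 1.16 FPKM in 5-Fu (adjusted p = 0.697 and 0.436). Dgat2 was the one member lower in CPM in every 5-Fu+BBR library, but its FPKM overlapped. Agpat2, an acyltransferase of phosphatidate synthesis, was at 23.0 ± 1.59 FPKM in 5-Fu+BBR and 26.0 ± 1.77 FPKM in 5-Fu (adjusted p = 0.54), apart in FPKM but not in CPM. Fasn, fatty acid synthase, was at 24.2 ± 5.43 FPKM in 5-Fu+BBR and 22.7 ± 2.95 FPKM in 5-Fu (adjusted p = 0.837). Lpin1, a phosphatidate phosphatase, and Acsl1, which activates fatty acids, were at 1.17 ± 0.279 and 3.19 ± 0.517 FPKM in 5-Fu+BBR, against 1.09 ± 0.257 and 3.28 ± 1.06 FPKM in 5-Fu (adjusted p = 0.88 and 0.968). A p that misses the threshold does not show that these levels are equal; for Pparg, Pnpla2, Lpin1, Acsl1 and Fasn the sign differed between alternatives.

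**Figure D2:**
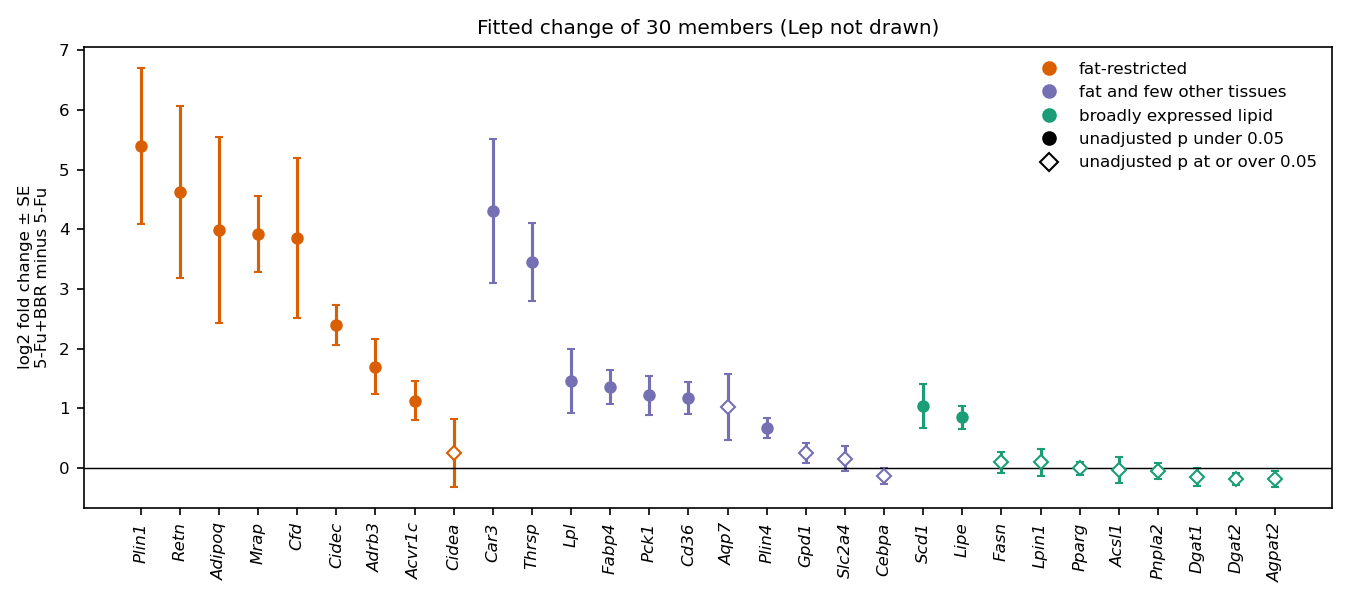
Log2 fold change, 5-Fu+BBR minus 5-Fu, of 30 members with bars of ± 1 SE, coloured by class; filled circles have an unadjusted p under 0.05 and open diamonds do not. Lep is not drawn because its fitted value against 0 counts depends on the prior count. Values descend from 5.39 for Plin1 to -0.18 for Agpat2 and Dgat2, and most broadly expressed genes lie on the zero line.

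The members also differed in which library of a group was highest. In 5-Fu+BBR, library 2 was the highest for 25 of the 31 members (80.6%), as against 31.4% of all genes tested. In 5-Fu, library 2 was the highest for 10 of the 31 members (32.3%), near the 34.4% of all genes tested. By class these were 6 of the 10 fat-restricted genes, 3 of the 11 genes of fat and few other tissues and 1 of the 10 broadly expressed genes. In 5-Fu library 2 the FPKM of Adipoq, Cfd, Car3, Retn and Plin1 was 19.1%, 18.2%, 14.0%, 11.8% and 6.46% of the 5-Fu+BBR mean, while that of Lpl was 70.9% and that of Scd1 76.6%. The ratio of Cfd to Adipoq in FPKM was 4.83, 6.04 and 5.53 in 5-Fu+BBR libraries 1 to 3 and 5.32 in 5-Fu library 2. The ratio of Scd1 to Adipoq was 7.62, 7.74 and 7.49 in the 5-Fu+BBR libraries and 30.6 in 5-Fu library 2. That of Plin1 to Adipoq was 0.286, 0.300 and 0.271 in 5-Fu+BBR and 0.0973 in 5-Fu library 2. Of 10 such ratios computed, those of Cfd and Thrsp lay within the range of 5-Fu+BBR in that library, and those of Car3, Plin1, Cidec, Retn, Lep, Lpl, Scd1 and Mrap lay outside it.

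**Figure D3:**
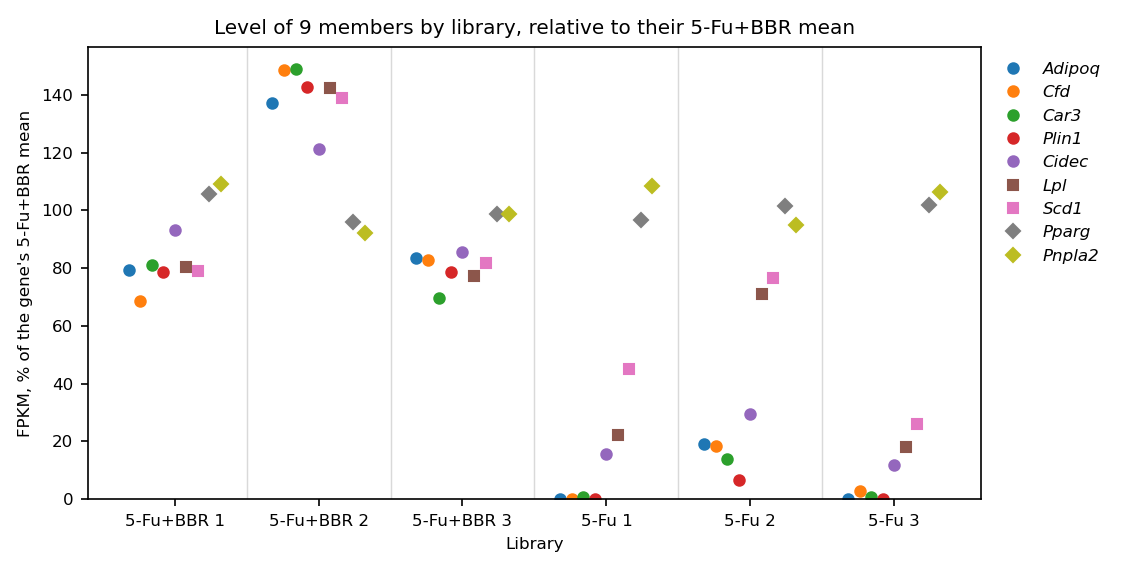
FPKM of 9 members in each library as a percentage of the gene's mean in 5-Fu+BBR; circles are genes of fat, squares are Lpl and Scd1, and diamonds are Pparg and Pnpla2. Adipoq, Cfd, Car3 and Plin1 are near 0 in 5-Fu libraries 1 and 3 and at 6.46% to 19.1% in library 2, while the diamonds stay near 100% throughout.

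Lists of further genes around fat storage, chosen by known role, gave smaller shares. Of 15 other adipocyte genes, 5 were higher and 0 lower at an unadjusted p under 0.05 (median log2 fold change 0.60). Of all genes tested, 9.48% were higher and 6.08% lower by that rule. Nat8l, an enzyme of N-acetylaspartate in fat and brain, was at 0.170 ± 0.0913 FPKM in 5-Fu+BBR and 0.0482 ± 0.00806 FPKM in 5-Fu (adjusted p = 0.169). Tshr, the thyrotropin receptor, which fat cells express, was at 0.0765 ± 0.0208 FPKM in 5-Fu+BBR and 0.00801 ± 0.0072 FPKM in 5-Fu (adjusted p = 0.184). Rbp4, the retinol carrier, was at 9.53 ± 1.22 FPKM in 5-Fu+BBR and 6.54 ± 1.58 FPKM in 5-Fu (adjusted p = 0.247), and Klb, a co-receptor of FGF21, at 1.09 ± 0.409 and 0.472 ± 0.248 FPKM (adjusted p = 0.278). The ratio of means was 9.55-fold for Tshr, 3.53-fold for Nat8l, 2.32-fold for Klb and 1.46-fold for Rbp4. In CPM, 7 of the 15 genes lay apart as higher, where 12.3% of all genes tested did. The groups overlapped for the other 8, namely Klb, Lgals12, Npr3, Arxes2, Pde3b, Adig, Sncg and Angptl4.

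Of 9 brown fat genes other than Ucp1 and Cidea, 6 were tested. At an unadjusted p under 0.05, 2 were higher, where 9.48% of all genes tested were. These were Ppargc1a, at 6.88 ± 0.127 FPKM in 5-Fu+BBR and 5.16 ± 0.398 FPKM in 5-Fu, and Prdm16, at 0.281 ± 0.0316 and 0.179 ± 0.0185 FPKM (adjusted p = 0.199 and 0.274). Both are also expressed outside fat. Dio2 and Cox8b, closer to brown fat, overlapped between the groups (adjusted p = 0.554 and 0.583), and Elovl3 was at most 0.0544 FPKM in any library and not tested.

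Of 11 other genes of lipid droplets and lipolysis, 9 were tested, with 2 higher and 1 lower at an unadjusted p under 0.05. Of all genes tested, 9.48% were higher and 6.08% lower. Pnpla3, a droplet protein induced by feeding, was at 0.663 ± 0.438 FPKM in 5-Fu+BBR and 0.0937 ± 0.0318 FPKM in 5-Fu (log2 fold change 2.75 ± 0.61, adjusted p = 0.124). Mgll, monoglyceride lipase, was at 4.38 ± 0.917 FPKM in 5-Fu+BBR and 2.97 ± 0.435 FPKM in 5-Fu (adjusted p = 0.183). Hilpda, an inhibitor of adipose triglyceride lipase induced by hypoxia, was at 3.66 ± 0.299 FPKM in 5-Fu+BBR and 5.69 ± 2.22 FPKM in 5-Fu (adjusted p = 0.318). Plin2, the perilipin of most cell types, was at 35.8 ± 3.91 FPKM in 5-Fu+BBR and 27.4 ± 5.12 FPKM in 5-Fu, with overlap (adjusted p = 0.367).

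Of 16 other genes of triglyceride and fatty acid synthesis, 2 were higher and 2 lower at an unadjusted p under 0.05 (median log2 fold change 0.11). The shares of all genes tested were 9.48% higher and 6.08% lower, so these counts do not set the list apart. Lpin2 and Mlxipl, a phosphatidate phosphatase and the carbohydrate-sensing factor ChREBP, were at 4.18 ± 0.523 and 3.14 ± 0.353 FPKM in 5-Fu+BBR, against 2.82 ± 0.121 and 2.17 ± 0.460 FPKM in 5-Fu (adjusted p = 0.146 and 0.199). Elovl6 and Gpat3, a fatty acid elongase and a glycerol-phosphate acyltransferase, were at 3.98 ± 0.380 and 1.09 ± 0.278 FPKM in 5-Fu+BBR, against 5.39 ± 0.451 and 1.64 ± 0.240 FPKM in 5-Fu (adjusted p = 0.222 and 0.284). Among 8 other transcription factors of fat formation, only Ebf1 was higher at an unadjusted p under 0.05, again beside 9.48% of all genes tested. It was at 0.641 ± 0.0632 FPKM in 5-Fu+BBR and 0.264 ± 0.200 FPKM in 5-Fu (adjusted p = 0.234). Among 6 receptors of adipokines and catecholamines, 0 had an unadjusted p under 0.05; Lepr, the leptin receptor, was at 1.02 ± 0.108 FPKM in 5-Fu+BBR and 0.838 ± 0.208 FPKM in 5-Fu.

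Markers of other tissues differed in which libraries they were high, and their part in the results above was not tested. The counts at an unadjusted p under 0.05 given below stand beside 9.48% of all genes tested as higher and 6.08% as lower. The libraries held between 53824752 and 63831168 estimated counts, and Epcam, the epithelial marker that defines colon mucosa, was at 777 ± 21.1 FPKM in 5-Fu+BBR and 713 ± 22.5 FPKM in 5-Fu. Of 9 epithelial genes, 0 had an unadjusted p under 0.05. Summed over 8 smooth muscle genes, levels were 1359, 1647 and 1502 FPKM in 5-Fu+BBR and 992, 819 and 745 FPKM in 5-Fu, with 7 of 8 higher at an unadjusted p under 0.05 and the groups apart. The smallest p of this list was that of Synpo2, at 8.82 ± 0.912 FPKM in 5-Fu+BBR and 5.09 ± 0.257 FPKM in 5-Fu (adjusted p = 0.0566). Over 7 macrophage genes the sums ranged from 312 to 406 FPKM in 5-Fu+BBR and from 188 to 230 FPKM in 5-Fu, with 3 higher and 1 lower at an unadjusted p under 0.05, the smallest being that of Csf1r, at 8.00 ± 0.721 FPKM in 5-Fu+BBR and 4.93 ± 0.615 FPKM in 5-Fu (adjusted p = 0.0705). These sums were mostly Lyz2, at 321 ± 50.7 FPKM in 5-Fu+BBR and 187 ± 22.7 FPKM in 5-Fu. The ratio of means was 1.03-fold for Mrc1, 1.01-fold for Adgre1 and 0.493-fold for Cd163, the gene that was lower. Over 9 genes of adipose progenitors and fibroblasts the sums were 190, 177 and 159 FPKM in 5-Fu+BBR and 109, 215 and 58.5 FPKM in 5-Fu, and over 8 endothelial genes 29.0, 25.3 and 22.3 FPKM in 5-Fu+BBR and 23.6, 37.1 and 15.4 FPKM in 5-Fu. In the first of these lists Dpp4 and Dpt were higher at an unadjusted p under 0.05 (adjusted p = 0.118 and 0.296), and in the second 0 genes had such a p. Both sums were highest of all 6 libraries in 5-Fu library 2, the 5-Fu library with the highest summed level of fat-restricted genes. Col3a1 and Col1a1 made up 87.6 and 41.0 FPKM of the first sum there, and Plvap 21.2 FPKM of the second. Dpp4 was lowest in that library, and Dpt, Cd34, Pi16, Kdr and Gpihbp1 were highest in others. All other genes of both lists were highest there.

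Kidney genes were high in 5-Fu+BBR libraries 2 and 3 and not in library 1, with sums over 8 genes of 15.8, 152 and 146 FPKM in 5-Fu+BBR and 16.0 to 18.3 FPKM in 5-Fu. At an unadjusted p under 0.05, 6 of the 8 were higher and 1 was lower. In FPKM, 5-Fu+BBR library 1 stood over 5-Fu library 2 by 12.2 times for Plin1, 7.58 for Adrb3, 5.70 for Mrap, 4.72 for Retn, 4.15 for Adipoq, 3.77 for Cfd, 3.16 for Cidec, 1.15 for Acvr1c and 1.03 for Cidea. Fitted without 5-Fu+BBR libraries 2 and 3, the median log2 fold change of fat-restricted genes was 3.11, and 7 members were higher at an unadjusted p under 0.05, where 3.56% of all genes were. That fit has 1 library of 5-Fu+BBR, which is assumed to vary as the 5-Fu libraries do. Of 8 genes of the exocrine pancreas, Prss2, Pnlip, Cpa1, Cela2a, Ctrb1 and Amy2a5 were listed at 0 in 5-Fu+BBR libraries 1 and 3 and above 0 in library 2. Prss2 and Ctrb1 were also above 0 in 5-Fu library 3, at 0.149 and 0.124 FPKM, and the others were at 0 in all 5-Fu libraries. The remaining genes of that list, Cpb1 and Cela1, were at 0.201 ± 0.0786 and 68.2 ± 9.49 FPKM in 5-Fu+BBR, against 0.0682 ± 0.0577 and 64.7 ± 11.1 FPKM in 5-Fu. Mesothelial genes, without Krt19, which epithelium expresses, summed to 3.82, 7.20 and 3.03 FPKM in 5-Fu+BBR and 2.64, 5.91 and 7.49 FPKM in 5-Fu, with 0 of 7 at an unadjusted p under 0.05. Skeletal muscle genes summed to 6.27, 4.61 and 6.18 FPKM in 5-Fu+BBR and 10.3, 5.93 and 4.52 FPKM in 5-Fu; of the 5 tested, Ckm was higher and Tnni2 lower at an unadjusted p under 0.05 (adjusted p = 0.274 and 0.256), and the median log2 fold change was -0.94. Liver genes summed to 66.8, 49.8 and 61.4 FPKM in 5-Fu+BBR and 58.3, 55.5 and 43.6 FPKM in 5-Fu. Of these 6, Serpina1a and Ttr were higher at an unadjusted p under 0.05 (adjusted p = 0.171 and 0.3), and Alb was at 17.0 ± 3.17 FPKM in 5-Fu+BBR and 21.8 ± 0.971 FPKM in 5-Fu (adjusted p = 0.328).

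**Figure D4:**
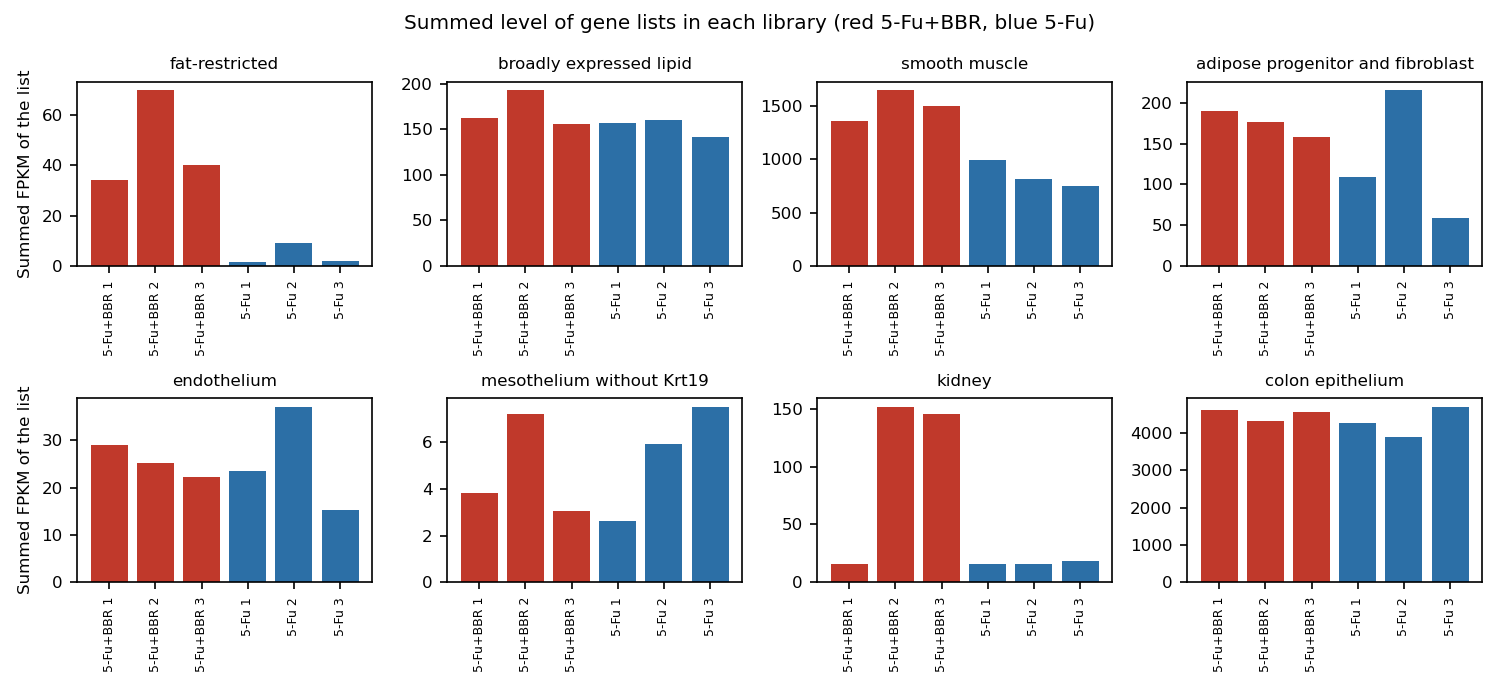
Summed FPKM of 8 gene lists in each library, as bars from 0, with 5-Fu+BBR in red and 5-Fu in blue. The sums of fat-restricted and smooth muscle genes are higher in every 5-Fu+BBR library, those of fibroblast and endothelial genes peak in 5-Fu library 2, and that of kidney genes is high in 5-Fu+BBR libraries 2 and 3.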

How the data were processed

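The deposited table holds FPKM and whole-number estimated counts, both computed by the authors. The submitters' processing notes name GRCm38 and, with no role or order, StringTie 1.3.4d, HISAT2 2.0.4, cutadapt 1.9, UMI-tools, edgeR and DESeq2; no annotation version is given in the sources used here. Per the labels' protocols, the libraries were made from polyadenylated RNA and marked strand. Among the counts the value 4 occurs 5414 times, 3 occurs 3539 times and 5 occurs 1953 times, so 1 fragment may be worth about 4 counts. The value 2 occurs 3713 times, more often than 3, so this step is uncertain. The floor of 3 fragments was taken as 12 counts over a group. Floors cover counting error only.

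The counts were kept as deposited, filtered with filterByExpr and normalised by TMM. The main test was the robust quasi-likelihood test of edgeR 4.0.16 (R 4.3.3), two-sided, 5-Fu+BBR against 5-Fu, with Benjamini-Hochberg adjustment over the 20101 genes kept; SE is the log2 fold change divided by the root of F. All pairs of libraries differed by more than counting noise (chi-square per gene 89.7 to 262). Alternatives were DESeq2 1.42.0, limma 3.58.1 on counts (voom) and on FPKM, other scaling and filters, counts divided by 4, a replicate block and left-out libraries. The fit was tested on simulated data. Promoters came from RefSeq, GRCm38.p6. All members are named, and from other lists up to 4 genes of smallest p and some defining markers. Elovl3, Ctrb1, Pnlip, Cpa1, Cela2a, Amy2a5 and the sum without Krt19 were chosen after their values were seen. The members and lists were chosen with earlier results of these data known.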

Additional observations from a re-analysis of the deposited data

How the results depend on the processing

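Against 0 members past an adjusted p of 0.05 in edgeR, DESeq2 gave 14, the fit with no filter on low counts 3 and leaving out each library 0 to 6, the highest without 5-Fu library 2. The labels number the libraries alike in both groups and do not say whether the numbers mark a pairing. Within-group deviations of same-numbered libraries correlated at 0.06, 0.02 and 0.12, and those of differently numbered ones at -0.15 to 0.10. Correlations from 3 libraries per group cannot decide whether the libraries were paired. A replicate block gave 2 members, 113 calls over all genes against 15, and a median log2 fold change of 4.34 for fat-restricted genes. Over all genes DESeq2 called 1227, the unfiltered fit 77, the FPKM fits 0 to 9 and the fits that leave out 1 library 0 to 159.

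The fat-restricted median, 3.89, was 2.34 on log2(FPKM + 0.1), 0.98 on log2(FPKM + 1) with or without a filter, 4.94 with voom, 1.46 when genes of fat and few other tissues were counted with the class, and 3.35 to 5.12 when 1 library was left out, the highest without 5-Fu library 2. Without both 5-Fu+BBR libraries 2 and 3 the fat-restricted median was 3.11, with 1 library left in 5-Fu+BBR, and the median of broadly expressed genes was 0.11. Counting genes of fat and few other tissues with the broad class gave 0.25.

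Values near 0 changed sign. Pparg was 0.0071 with at least 50 counts in 3 libraries, 0.0065 with counts divided by 4 and 0.11 without both 5-Fu+BBR libraries 2 and 3, where Pnpla2 was also 0.11, Cidea -0.43 and Slc2a4 -0.19. Acsl1 was 0.0064 on log2(FPKM + 0.1) and 0.0034 with the replicate block. With 1 library left out, Acsl1 ranged from -0.234 to 0.0946, Fasn from -0.0621 to 0.246, Lpin1 from -0.0702 to 0.26, Pnpla2 from -0.147 to 0.0325 and Pparg from -0.0715 to 0.0722. The cause was not tested. Over single genes and alternatives, 20 values changed sign, and 472 kept and 25 gained a side of the threshold with the same direction. Low counts limit Lep, Mrap, Cidea and Aqp7, and 0 counts in 5-Fu libraries 1 and 3 limit Plin1, Retn and Adipoq. With counts divided by 4, or with at least 50 counts in 3 libraries, 27 members were tested. Lep, Mrap, Cidea and Aqp7 then failed the filter, which left 7 fat-restricted genes.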
